A study of Drosophila melanogaster with 17 samples.

Results

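Sorted progenitor cells of the adult fly midgut in which Notch had been knocked down by RNA interference (RNAi) were compared between 2 single-bacterium conditions, Lactobacillus brevis and Lactobacillus plantarum. The comparison takes every gene of the count table in 6 of the 17 libraries of the series, chosen by their genotype and microbiome labels: L. brevis Notch RNAi (n = 3) and L. plantarum Notch RNAi (n = 3). Both groups carry the genotype esgts/NRNAi, in which the esgts driver, known in the field as a temperature-sensitive tool active in progenitor cells, runs the RNAi construct against Notch. All flies were adult virgin females held for 5 days at 25 °C, given their bacterium overnight and held for 5 further days at 29 °C. Each sample is a pool of 100 guts, from which small cells carrying green fluorescent protein were sorted. The control groups used beside them have the genotype esgts, with L. brevis (n = 3) or L. plantarum (n = 3), and a germ-free esgts/NRNAi group (n = 3) shows the same genotype without bacteria. The series' text calls the samples biological replicates.

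The fly midgut is renewed by stem cells that make enteroblasts, which mature into absorptive enterocytes, and enteroendocrine cells, which secrete peptide hormones. Notch is a receptor on these cells and Delta, its ligand, is made by the stem cells. Active Notch switches on the genes of the E(spl) complex and directs daughters toward the enterocyte fate, and midguts short of Notch are known for clusters of stem-like and enteroendocrine cells. L. brevis and L. plantarum are common members of the fly's gut community.

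Notch itself (symbol N) was lower in every RNAi library than in every control library. It stood at 79.8, 82.9 and 71.3 CPM (counts scaled to a library of 1000000, corrected for composition by edgeR's trimmed mean of M-values) with L. brevis and at 52.8, 62.8 and 62.1 CPM with L. plantarum, against 165.7 to 223.6 CPM in the esgts libraries with either bacterium. The 6 libraries held 26862093 to 38237532 counts, and ribosomal RNA genes took 10.9% to 11.8% of them with L. brevis and 10.6% to 12.5% with L. plantarum. In a principal component analysis of these 6 libraries the leading axis took 38.2% of the variance, with the L. brevis libraries at -43.07 to -19.46 and the L. plantarum libraries at 9.21 to 47.86.

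Against the label of progenitor cells, 9 progenitor markers that were tested summed to 1646 to 1761 CPM with L. brevis and 1860 to 1997 CPM with L. plantarum. The same libraries carried much enteroendocrine and enterocyte RNA. The 13 enteroendocrine markers summed to 18139 to 29966 CPM with L. brevis and 32534 to 39163 CPM with L. plantarum, and the 12 enterocyte markers to 6197 to 12731 and 8021 to 23528 CPM. The enteroendocrine and the progenitor sums of the groups do not overlap, but 1 gene decides each. Without Orcokinin the enteroendocrine markers sum to 7558 to 7648 CPM with L. brevis and 7222 to 7558 CPM with L. plantarum. Without mys, an integrin chain, the progenitor markers sum to 894.3 to 975.5 CPM with L. brevis and 933.7 to 954.4 CPM with L. plantarum, and the groups overlap. In pooled cells, fewer cells of a type and less RNA per cell cannot be told apart, which applies to every level given here.

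With L. brevis, 1692 of 11786 genes tested differed from L. plantarum at an edgeR adjusted p under 0.05 (14.4%). Of these, 867 were higher (7.36%) and 825 lower (7.0%), and 3804 genes had an unadjusted p under 0.05. The counts of calls in each gene list below are to be read against these shares. The 2 directions differed in size and in gene length. The higher genes had a median change of 0.45 on the log2 scale, 37 of them by at least 2-fold, and a median summed exon length of 1550 bases. For the lower genes the median size was 0.78, 260 fell at least 2-fold, and the median length was 4851 bases, where all tested genes have 1834. When ribosomal RNA genes were left out of the scaling, the split became 1165 higher and 735 lower, 61.3% higher against 51.2%. In a fit on these 2 groups alone it was 484 higher and 954 lower (33.7% higher), and with a replicate block in that fit 138 and 673 (17.0% higher).

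The number of calls rests on single libraries. It was 805, 360 and 1115 without L. brevis replicate 1, 2 or 3, and 664, 250 and 1649 without L. plantarum replicate 1, 2 or 3. A core of 227 genes was called in all 6 of these fits (1.93% of the genes tested), with 78 higher (0.662%) and 149 lower (1.26%). The libraries of the groups did not overlap in CPM for 4391 of all genes tested (37.3%; 20.7% higher, 16.5% lower), against which each statement on overlap below is to be read. The authors' deposited table of this comparison lists 10201 genes and 1800 of them at a false discovery rate under 0.05 (17.6%; 7.66% higher, 9.99% lower). Of those, 1532 were also called here, all in the same direction, which is 90.5% of the calls here and 85.1% of the calls in the authors' deposited table.

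**Figure D1:**
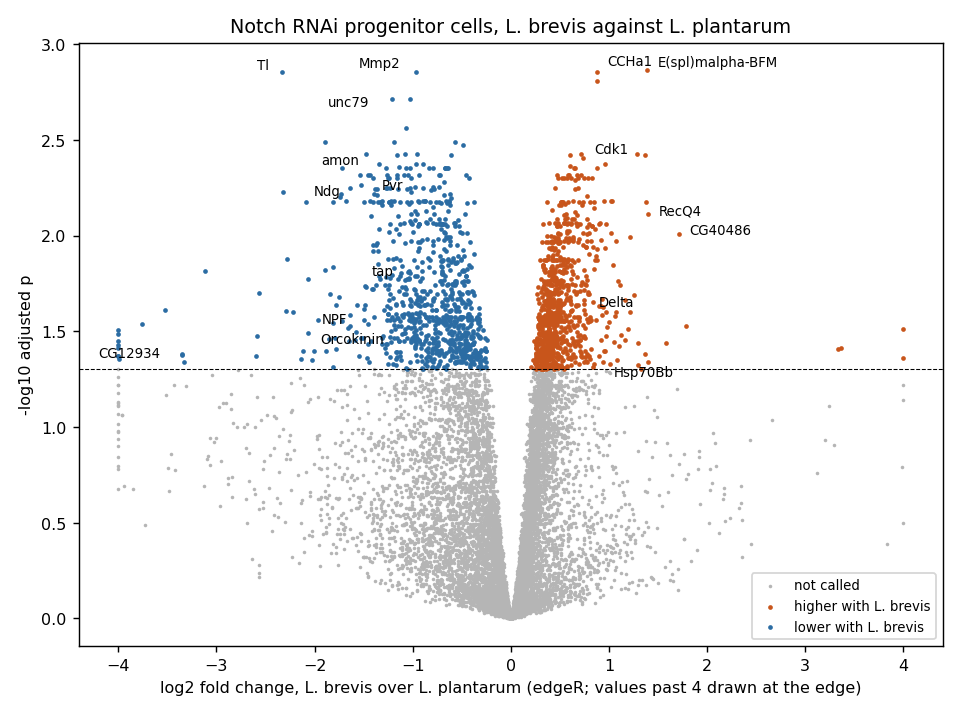
Log2 fold change of L. brevis over L. plantarum (x axis) against -log10 of the edgeR adjusted p (y axis) for the 11786 genes tested in Notch RNAi progenitor cells, with 867 genes called higher and 825 called lower. The dashed line is the threshold of 0.05, and E(spl)malpha-BFM has the smallest adjusted p, 0.00136.

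The fold change moved with gene length over most length classes, at a Spearman rho of -0.21 across genes. The shortest class did not follow: of 795 genes up to 500 bases, 22 were lower with L. brevis and 13 higher, at a median of -0.085. Among 1401 genes with over 5000 bases of exon, 395 were lower with L. brevis and 10 higher, at a median of -0.42 on the log2 scale. Among 3678 genes of 1001 to 2000 bases, 93 were lower and 460 higher, at a median of 0.12. The median over all genes was -0.0067. Per library, long genes (over 5000 bases) were set against short genes (up to 1500 bases), both with a mean over 5 CPM. The median deviation of the long genes from the average library, less that of the short genes, was -0.20, -0.16 and -0.45 (log2) with L. brevis. With L. plantarum it was 0.12, 0.35 and 0.31, so the groups do not overlap. Germ-free Notch RNAi libraries lay between them at -0.06 to 0.11.

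The same tilt was present in control flies, although the libraries overlap there. The control medians were -0.32 for genes over 5000 bases and 0.12 for genes of 1001 to 2000 bases. By library, long minus short genes, defined as above, stood at -0.65, -0.26 and -0.03 in L. brevis controls and at -0.20, 0.35 and 0.29 in L. plantarum controls. To show which results move with it, each library's trend of expression on length was removed as an alternative chosen after the data had been seen. That fit called 1291 genes (11.0%), with 612 higher (5.19%) and 679 lower (5.76%), and 855 of the 1692 calls remained. Of the 867 higher genes 393 stayed called, and of the 825 lower genes 462. The cause of the tilt was not tested, and length-adjusted values are given beside the gene groups below.

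**Figure D2:**
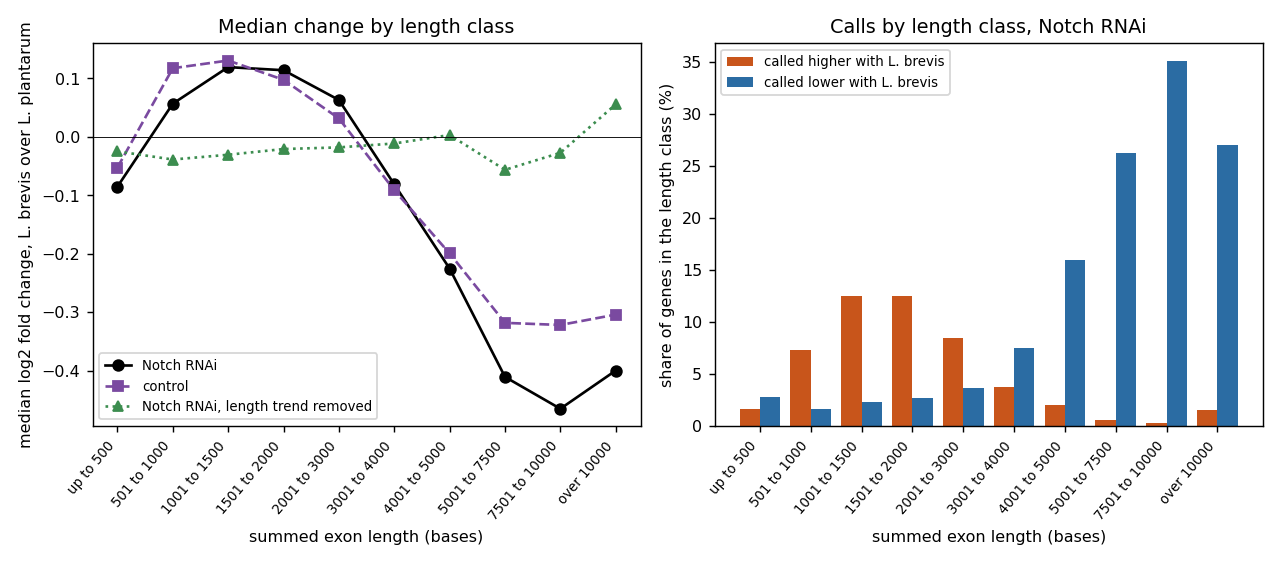
Left, median log2 fold change of L. brevis over L. plantarum by class of summed exon length in Notch RNAi cells, in control cells and in Notch RNAi cells with the length trend removed. Right, share of genes in each class called higher or lower in Notch RNAi cells, where lower calls take 35.1% of the genes of 7501 to 10000 bases and higher calls 12.5% of those of 1001 to 1500 bases.

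The E(spl) complex, which Notch switches on, held the gene with the smallest adjusted p, E(spl)malpha-BFM, while most of its members were not called. The genes of the complex encode the helix-loop-helix repressors and the Bearded-family proteins. Of the 9 tested, 3 were higher with L. brevis and none lower, at a median of 0.51, and with the length trend removed 1 stayed called at a median of 0.37. E(spl)malpha-BFM (FBgn0002732, 3R:26010893-26011568 in the BDGP6 annotation, plus strand), a Bearded-family member, stood at 23.6, 19.3 and 17.4 CPM with L. brevis and at 5.58, 7.998 and 9.37 CPM with L. plantarum. Every L. brevis library exceeded every L. plantarum library. The log2 fold change was 1.39 (SE 0.151, edgeR adjusted p = 0.00137), it was called in all 6 fits that leave out 1 library, and it was 1.32 with the length trend removed.

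E(spl)m8-HLH, a repressor of the complex, had 7.18, 7.17 and 8.64 CPM with L. brevis and 2.00, 3.09 and 4.25 CPM with L. plantarum (log2 fold change 1.30, SE 0.413, edgeR adjusted p = 0.0475). Its groups do not overlap, but 5 of the 6 fits that leave out a library lost the call, as did removal of the length trend (edgeR adjusted p = 0.0682). E(spl)m6-BFM had 2.37, 2.92 and 2.17 CPM with L. brevis, against 0.333, 0.7998 and 0.999 CPM with L. plantarum. E(spl)m7-HLH, E(spl)mbeta-HLH, E(spl)mgamma-HLH and E(spl)m2-BFM had positive values of 0.51, 0.20, 0.87 and 0.18 that were not called, and E(spl)m3-HLH and E(spl)m5-HLH had -0.09 and -1.83. Without L. brevis replicates 1, 2 and 3 the list held 1, 1 and 3 calls, and without L. plantarum replicates 1, 2 and 3 it held 1, 1 and 4.

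Of 22 tested genes for the Notch receptor, its ligands and their processing, 3 were higher and 2 lower, at a median of 0.10. With 7.36% of all genes higher and 7.0% lower, counts this small do not set the list apart. Delta (FBgn0000463) stood at 216.0, 198.8 and 150.9 CPM with L. brevis and 104.1, 110.9 and 121.6 CPM with L. plantarum, so the groups do not overlap. The difference of Delta was 0.75 (SE 0.188, edgeR adjusted p = 0.0218), and 1.07 with the length trend removed (edgeR adjusted p = 0.0107). That of N was 0.40 (SE 0.107, edgeR adjusted p = 0.0265), and 0.85 with the length trend removed (edgeR adjusted p = 0.00985). Each was called in 2 of the 6 fits that leave out a library, with highest adjusted p values of 0.0831 for Delta and 0.101 for N by edgeR. Both genes have long transcripts, of 5278 and 10150 bases of exon, and the adjustment moved both upward. Sanpodo (spdo), a membrane protein that acts with Notch in asymmetric divisions, had 68.0, 68.4 and 51.0 CPM with L. brevis and 35.5, 36.6 and 51.0 CPM with L. plantarum, where replicate 3 of each group meets (0.60, SE 0.18, edgeR adjusted p = 0.0372). It was not called with the length trend removed (edgeR adjusted p = 0.0837).

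Among the genes lower with L. brevis was fringe (fng), a glycosyltransferase that modifies Notch, with 12.1, 12.9 and 14.3 CPM against 24.1, 23.4 and 15.3 CPM with L. plantarum. Its difference was -0.67 (SE 0.159, edgeR adjusted p = 0.0164) and -0.79 with the length trend removed, and it overlaps the antisense gene CG10589, so its value is uncertain. The ubiquitin ligase mib1, which readies ligands for signalling, was at -0.42 (edgeR adjusted p = 0.0488). With the length trend removed 6 members of this list were higher and 1 lower. The list had 0 to 3 higher and 0 to 1 lower calls in the fits without a library, with 0 of either without L. brevis replicate 2 or L. plantarum replicates 1 or 2.

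Among 17 tested transcription factors of stem cells and enteroblasts, 1 was higher and 3 lower, at a median of -0.19 (0.12 with the length trend removed). The enteroblast zinc-finger factor klu had 7.54, 9.59 and 8.36 CPM with L. brevis and 13.4, 13.9 and 10.6 CPM with L. plantarum. Its change of -0.57 (SE 0.129, edgeR adjusted p = 0.0139) was -0.30 and not called with the length trend removed (edgeR adjusted p = 0.282). Sox100B, a factor needed for differentiation, was at 424.4, 430.8 and 422.0 CPM with L. brevis and 520.7, 512.2 and 500.7 CPM with L. plantarum. This small difference of -0.26 (SE 0.0766, edgeR adjusted p = 0.0343) was -0.38 with the length trend removed, and 5 of the 6 fits without a library lost it. Dichaete (D), a SOX factor, had 1.67, 2.34 and 1.47 CPM with L. brevis and 0.517, 0.771 and 0.768 CPM with L. plantarum, and it kept its call in none of these 6 fits.

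**Figure D3:**
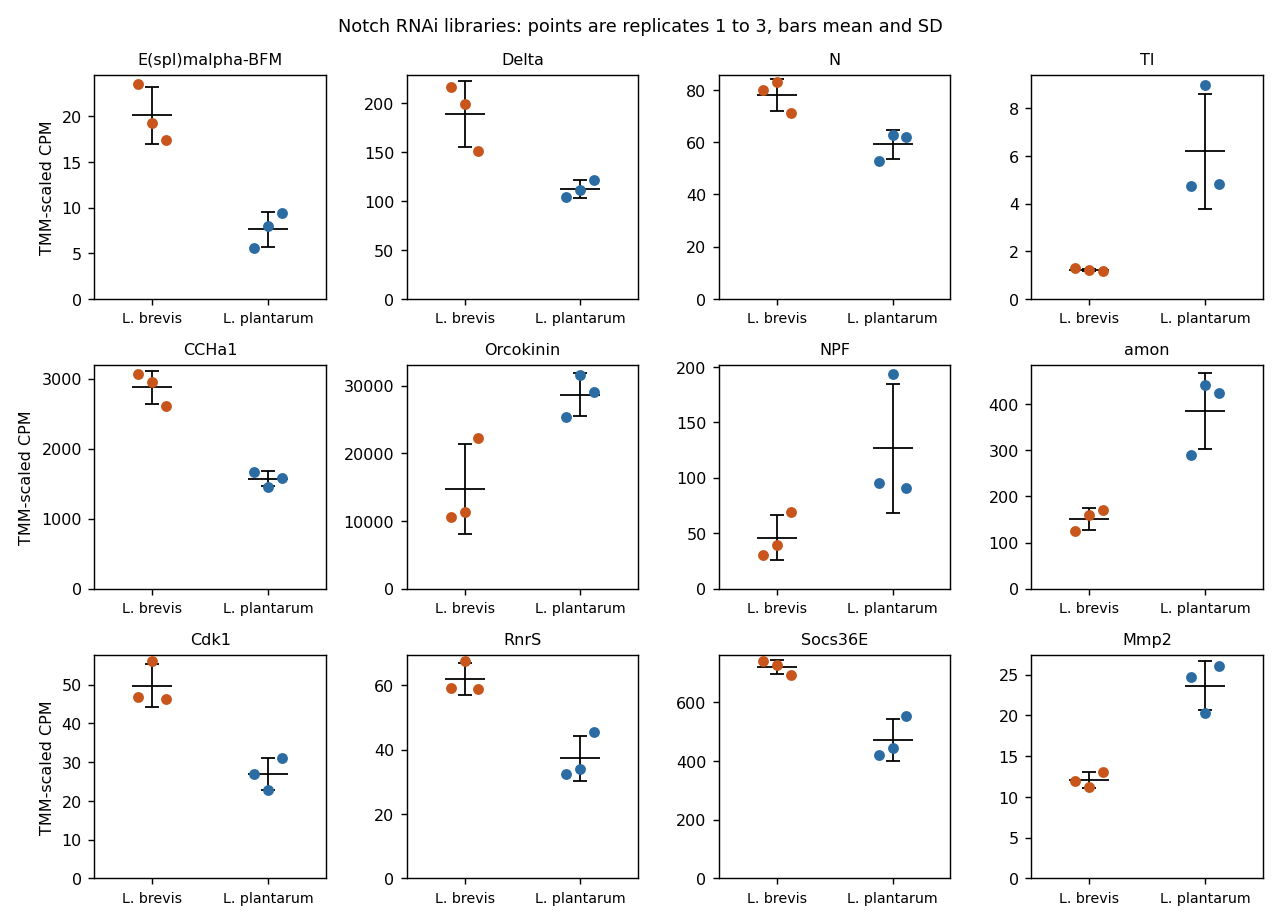
TMM-scaled CPM (y axis, from 0) of 12 genes in the 3 L. brevis and the 3 L. plantarum Notch RNAi libraries (x axis), with points for replicates and bars for the mean and SD. In each of the 12 panels the groups do not overlap, as in 37.3% of all genes tested: the 7 genes E(spl)malpha-BFM, Delta, N, CCHa1, Cdk1, RnrS and Socs36E are higher and the 5 genes Tl, Orcokinin, NPF, amon and Mmp2 lower with L. brevis.

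Enteroendocrine genes differed member by member. Of 12 peptide hormones tested, 1 was higher with L. brevis and 3 were lower, at a median of -0.16, and the counts were the same with the length trend removed. CCHa1 (FBgn0038199, 3R:14092504-14096835, minus strand), the gut peptide CCHamide-1, stood at 3065, 2946 and 2611 CPM with L. brevis and at 1671, 1456 and 1575 CPM with L. plantarum. All L. brevis libraries were higher, by 0.87 on the log2 scale (SE 0.106, edgeR adjusted p = 0.00141), and the call held in all 6 fits without a library.

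Orcokinin, a hormone of a subset of enteroendocrine cells, stood at 10574, 11265 and 22318 CPM with L. brevis and at 25313, 31605 and 29094 CPM with L. plantarum. Replicate 3 with L. brevis was close to the lowest L. plantarum library, but the groups do not overlap. Its change was -0.96 (SE 0.267, edgeR adjusted p = 0.0313), and 1 of the 6 fits that leave out a library kept it (highest edgeR adjusted p 0.121). Neuropeptide F (NPF) had 30.4, 39.1 and 69.0 CPM with L. brevis and 95.3, 193.4 and 91.1 CPM with L. plantarum (-1.45, SE 0.383, edgeR adjusted p = 0.0289, called in 3 of these 6 fits). Tachykinin (Tk) was at -0.67 (edgeR adjusted p = 0.0775) and Dh31 at 1.25 (edgeR adjusted p = 0.0778), neither called. ITP, whose exons overlap the antisense gene CG4622, was at -0.36 and lost its call with the length trend removed (edgeR adjusted p = 0.614). The 3 lower calls of this list were absent without L. brevis replicate 1 or 2 or L. plantarum replicate 2.

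Some enzymes that turn prohormones into active peptides were lower. Of 9 tested, 3 were lower and none higher, at a median of -0.36, and 3 were lower with the length trend removed (median -0.38). Amontillado (amon, FBgn0023179, 3R:26697697-26714159, minus strand), the fly prohormone convertase, stood at 124.4, 158.8 and 170.5 CPM with L. brevis and at 290.3, 440.9 and 424.2 CPM with L. plantarum. The groups lie well apart, at a log2 fold change of -1.35 (SE 0.201, edgeR adjusted p = 0.00422), with -1.18 after removal of the length trend and a call in all 6 fits without a library. Pal2, an enzyme of peptide amidation, was at -0.51 (SE 0.139, edgeR adjusted p = 0.0273), and the carboxypeptidase svr at -0.89 (SE 0.164, edgeR adjusted p = 0.00664). Both overlap antisense genes and are uncertain, and svr was not called with the length trend removed (-0.44, edgeR adjusted p = 0.137).

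Among 20 tested genes of synaptic vesicle release, which enteroendocrine cells share with neurons, 2 were lower, at a median of -0.10 (0.05 and 1 in each direction with the length trend removed). The synaptotagmin Sytbeta had 85.0, 110.6 and 127.7 CPM with L. brevis and 187.6, 284.1 and 284.5 CPM with L. plantarum. Its change was -1.23 (SE 0.218, edgeR adjusted p = 0.00664), called in all 6 fits without a library and -0.96 with the length trend removed. The active-zone scaffold brp, at -0.87, lost its call there (-0.40, edgeR adjusted p = 0.158). Of 19 tested factors of enteroendocrine fate, 1 was higher and 2 were lower, at a median of -0.16 (0.07 with the length trend removed). Scute (sc), the proneural factor that starts this fate, had 49.96, 53.0 and 44.7 CPM with L. brevis and 32.0, 24.7 and 29.8 CPM with L. plantarum (0.77, SE 0.21, edgeR adjusted p = 0.0273). The 2 lower factors were tap, a helix-loop-helix protein, at -1.06 (SE 0.244, edgeR adjusted p = 0.0169) and dachshund (dac) at -1.11 (SE 0.253, edgeR adjusted p = 0.0145). Without the length trend tap and dac kept their calls and sc did not (0.63, edgeR adjusted p = 0.0639). The fits without a library gave this list 0 or 1 higher and 0 to 3 lower calls, with none of either without L. plantarum replicate 2. Beside 7.36% higher and 7.0% lower over all genes, the counts of the vesicle release and fate lists do not set them apart.

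Enterocyte genes had lower values with L. brevis, and their digestive enzymes varied widely between replicates. Of 43 digestive genes, 40 had negative values at a median of -0.72 (-0.85 with the length trend removed). The main edgeR fit called 0 of them, and DESeq2 called 1 lower, at a list median of -0.71. Other edgeR fits called 0 to 4 lower, with 4 for the replicate block in these 2 groups alone and 3 without L. plantarum replicate 3. Amylase (Amy-p) stood at 5966, 2930 and 4271 CPM with L. brevis and 7793, 3093 and 3017 CPM with L. plantarum, and trypsin alphaTry at 2933, 1244 and 2855 against 7671, 4552 and 2063 CPM. L. plantarum replicate 1 was the highest and L. brevis replicate 2 the lowest library for both genes, and the groups overlap.

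Of 10 regulators of enterocyte identity, 3 were lower, at a median of -0.63 (-0.44 with the length trend removed). The brush-border myosin Myo31DF had 167.1, 151.0 and 157.2 CPM with L. brevis and 267.9, 250.4 and 226.2 CPM with L. plantarum. The groups do not overlap and the change of -0.65 (SE 0.123, edgeR adjusted p = 0.00677) was called in all 6 fits without a library, though an antisense gene overlaps it. The homeobox factors dve and lab pattern midgut regions. The value of dve was -0.74 (SE 0.145, edgeR adjusted p = 0.00817) and that of lab -0.71 (SE 0.144, edgeR adjusted p = 0.00876). After removal of the length trend lab stayed called, at -0.71, and dve did not (-0.43, edgeR adjusted p = 0.0783).

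Many genes of the cell cycle were higher with L. brevis and few were lower. Of 21 mitotic cyclins and kinases tested, 8 were higher and none lower, at a median of 0.61, and of 35 genes of the DNA replication machinery, 18 were higher and none lower, at a median of 0.58, with 34 positive values. Among 39 kinetochore and spindle genes, 17 were higher and 3 lower, at a median of 0.37. Among 14 regulators of the G1 to S transition, 7 were higher and 1 lower, at a median of 0.45. With the length trend removed these 4 lists held 5, 10, 14 and 9 higher calls and 0, 0, 1 and 0 lower calls, at medians of 0.51, 0.44, 0.43 and 0.41. A replicate block in the fit on these 2 groups alone left 3, 4, 1 and 1 higher and 0, 0, 2 and 1 lower.

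The mitotic kinase Cdk1 (FBgn0004106, 2L:10384739-10386262, minus strand) stood at 46.9, 56.1 and 46.2 CPM with L. brevis and at 26.9, 22.9 and 31.2 CPM with L. plantarum. It was higher in every L. brevis library, by 0.88 (SE 0.143, edgeR adjusted p = 0.00443), and called in all 6 fits without a library. Cyclin A (CycA) had a log2 fold change of 0.53 (SE 0.12, edgeR adjusted p = 0.0134), the securin pim 0.79 (SE 0.197, edgeR adjusted p = 0.0203) and the kinase polo 0.61 (SE 0.155, edgeR adjusted p = 0.022). These 3 calls held with the length trend removed but were each lost in 3 or more of the 6 fits without a library.

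Of the spindle and chromosome genes, the condensin subunit barr had 42.9, 42.2 and 32.7 CPM with L. brevis and 24.0, 23.9 and 26.9 CPM with L. plantarum (0.65, SE 0.127, edgeR adjusted p = 0.0075, called in all 6 fits without a library). The chromosomal passenger protein borr followed at 59.3, 72.1 and 51.8 against 27.4, 29.5 and 41.3 CPM (0.90, SE 0.182, edgeR adjusted p = 0.00876). In neither gene do the groups overlap. Among the regulators of S phase entry, the kinase Cdk2 was at 1.02 (SE 0.212, edgeR adjusted p = 0.00968), the repressor E2f2 at 0.59, the replication inhibitor geminin at 0.58 and the Cdk inhibitor dap at 0.52 (edgeR adjusted p = 0.0105, 0.0146 and 0.0143). Cdk2 and E2f2 overlap antisense genes and are uncertain.

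Ribonucleotide reductase RnrS, which makes the precursors of DNA, had 59.1, 67.6 and 58.8 CPM with L. brevis and 32.5, 34.1 and 45.3 CPM with L. plantarum. The groups do not overlap, and the change of 0.73 (SE 0.14, edgeR adjusted p = 0.00694) was called in all 6 fits without a library. The chromatin assembly subunit Caf1-105 was at 0.91 (SE 0.182, edgeR adjusted p = 0.00857), the origin protein Orc2 at 0.76 (edgeR adjusted p = 0.0115) and DNAlig1, the replicative ligase, at 0.50 (edgeR adjusted p = 0.00981). Of the helicase subunits, Mcm2, Mcm3, dpa and Mcm7 were called at 0.80, 0.61, 0.69 and 0.74, and Mcm5 and Mcm6, at 0.63 and 0.36, were not. RecQ4, a helicase used when replication starts, had 8.69, 11.1 and 6.35 CPM with L. brevis and 2.03, 3.54 and 4.30 CPM with L. plantarum. It was among the largest rises of all genes, 1.39 (SE 0.273, edgeR adjusted p = 0.00776), with 1.69 after removal of the length trend.

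How many cell-cycle genes passed depended on single libraries, while the medians stayed positive. Replication genes numbered 7, 3 and 12 higher calls without L. brevis replicates 1, 2 and 3, and 4, 2 and 23 without L. plantarum replicates 1, 2 and 3. Mitotic cyclins and kinases numbered 4, 1 and 6, and 1, 1 and 8. Kinetochore and spindle genes numbered 7, 3 and 16, and 5, 1 and 18, and G1 to S regulators 4, 1 and 7, and 2, 0 and 8. Per library, the replication list had a median deviation from the 6-library mean of 0.26, 0.38 and 0.15 with L. brevis and of -0.38, -0.40 and -0.03 with L. plantarum. L. brevis replicate 2 stood highest, and L. plantarum replicate 3 lay closest to the L. brevis libraries.

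**Figure D4:**
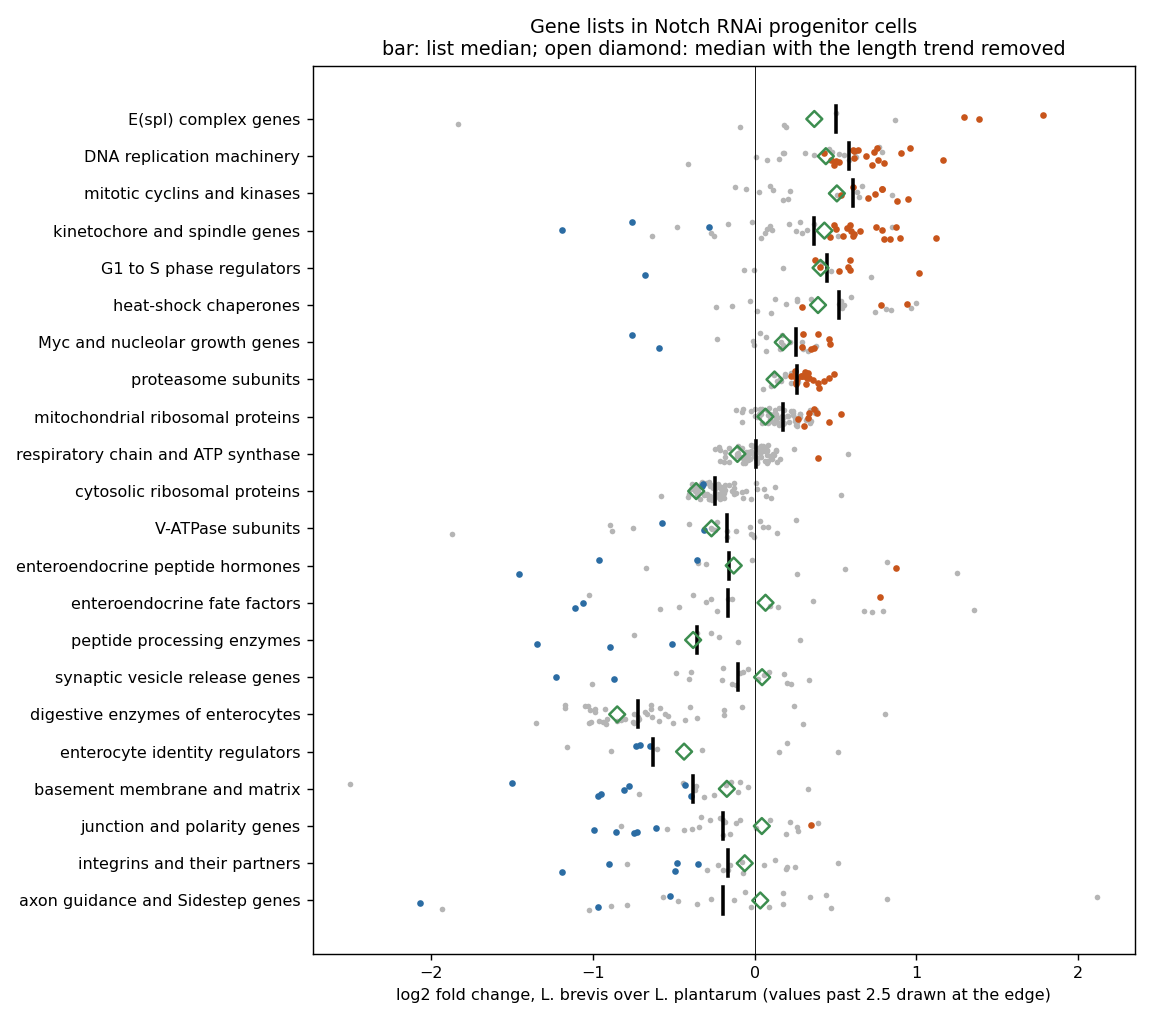
Log2 fold change of L. brevis over L. plantarum (x axis) for the members of 22 gene lists (y axis), orange where called higher and blue where called lower, grey otherwise. Bars are list medians and open diamonds the medians with the length trend removed, from 0.61 for the mitotic list to -0.72 for the digestive list without that adjustment.

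Histone genes of the replication-dependent cluster exist in many near-identical copies, so single copies are uncertain. Of 109 copies tested 12 were higher and none lower, at a median of 0.0044 (7 higher with the length trend removed). The count was 2 without L. brevis replicate 2 or L. plantarum replicate 2. Counts summed over the 23 copies of the linker histone His1 came to 230.1, 292.9 and 228.3 CPM with L. brevis and 108.9, 127.3 and 169.5 CPM with L. plantarum (0.89, SE 0.206, edgeR adjusted p = 0.0165). Every L. brevis library was higher. The summed core histones were not called, at -0.15 for His2A, -0.38 for His2B, 0.23 for His3 and -0.02 for His4.

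Most proteasome subunits were called higher. All 32 proteasome subunits had positive values, 20 of them called, at a median of 0.26. Rpn5 of the proteasome lid stood at 137.2, 157.4 and 132.6 CPM with L. brevis and 97.0, 97.7 and 108.9 CPM with L. plantarum, without overlap (0.49, SE 0.0946, edgeR adjusted p = 0.00694, called in all 6 fits without a library). Proteasome transcripts are short, at a median of 1304 bases of exon, and with the length trend removed 4 subunits stayed called at a median of 0.12. The fit on these 2 groups alone called 7, and fits without a library called 6, 4 and 8 (L. brevis replicates 1, 2 and 3) and 3, 1 and 17 (L. plantarum replicates 1, 2 and 3).

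Of 23 heat-shock chaperones 20 had positive values and 3 were called, at a median of 0.52 (0.39 and 2 calls with the length trend removed). Near-identical copies count separately in this list, and with copies summed it had 2 calls of 17 at a median of 0.26. The 4 near-identical Hsp70B copies, summed, reached 46442, 50256 and 39579 CPM with L. brevis and 14678, 22722 and 32710 CPM with L. plantarum. The groups do not overlap, though L. plantarum replicate 3 came near (0.96, SE 0.302, edgeR adjusted p = 0.0489). The cochaperone DnaJ-1 had 228.6, 254.3 and 206.9 CPM with L. brevis and 108.2, 133.8 and 158.6 CPM with L. plantarum (0.78, SE 0.191, edgeR adjusted p = 0.0198). The list held 0 calls without L. brevis replicate 2 or L. plantarum replicate 1 or 2, and 8 without L. plantarum replicate 3.

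Of 81 cytosolic ribosomal proteins 74 had negative values, at a median of -0.25, and 2 were called lower, RpL4 at -0.33 and RpL8 at -0.32 (edgeR adjusted p = 0.0425 and 0.0427). After removal of the length trend 53 were called lower at a median of -0.36, and without L. brevis replicate 3 41 were. By library, the list's median deviation was -0.17, -0.36 and 0.16 in the L. brevis libraries and 0.23, 0.10 and 0.06 in the L. plantarum libraries, so L. brevis replicate 3 lies within the L. plantarum range. Mitochondrial ribosomal proteins went the other way, with 66 of 72 positive and 8 called higher at a median of 0.18 (0.07 and 4 calls with the length trend removed). Over all genes 7.36% were called higher, and 5.19% with the length trend removed, close to the share of this list in that fit. In control flies the median of the mitochondrial ribosomal list was 0.17. Respiratory chain and ATP synthase genes had 1 call of 73, UQCR-11 at 0.39 (edgeR adjusted p = 0.0366), at a median of 0.0079, and 0 higher and 2 lower with the length trend removed. The mitochondrial ribosomal list had 0 to 5 calls in the fits without a library, with 0 without L. plantarum replicate 2.

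Of 26 genes of Myc-driven growth and the nucleolus 7 were higher and 2 lower, at a median of 0.25 (4 and 2 with the length trend removed). The ribosome assembly factor ppan was at 0.46 (SE 0.104, edgeR adjusted p = 0.0134), whereas Polr1A, the large subunit of RNA polymerase I, was at -0.76 (SE 0.198, edgeR adjusted p = 0.0244). Without L. brevis replicate 2 or L. plantarum replicate 2 neither direction had a call in this list. The 23 subunits of the V-ATPase, the proton pump, had 2 lower calls, Vha100-2 at -0.57 and Vha55 at -0.32, where 7.0% of all genes were lower. The 16 genes of glycolysis had 0 in either direction in the main edgeR fit. DESeq2 called 1 of them lower, as did the edgeR fit without L. brevis replicate 3. With the length trend removed 4 V-ATPase and 3 glycolysis genes were lower, and without L. brevis replicate 2 or L. plantarum replicate 1 or 2 no V-ATPase gene was called.

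**Figure D5:**
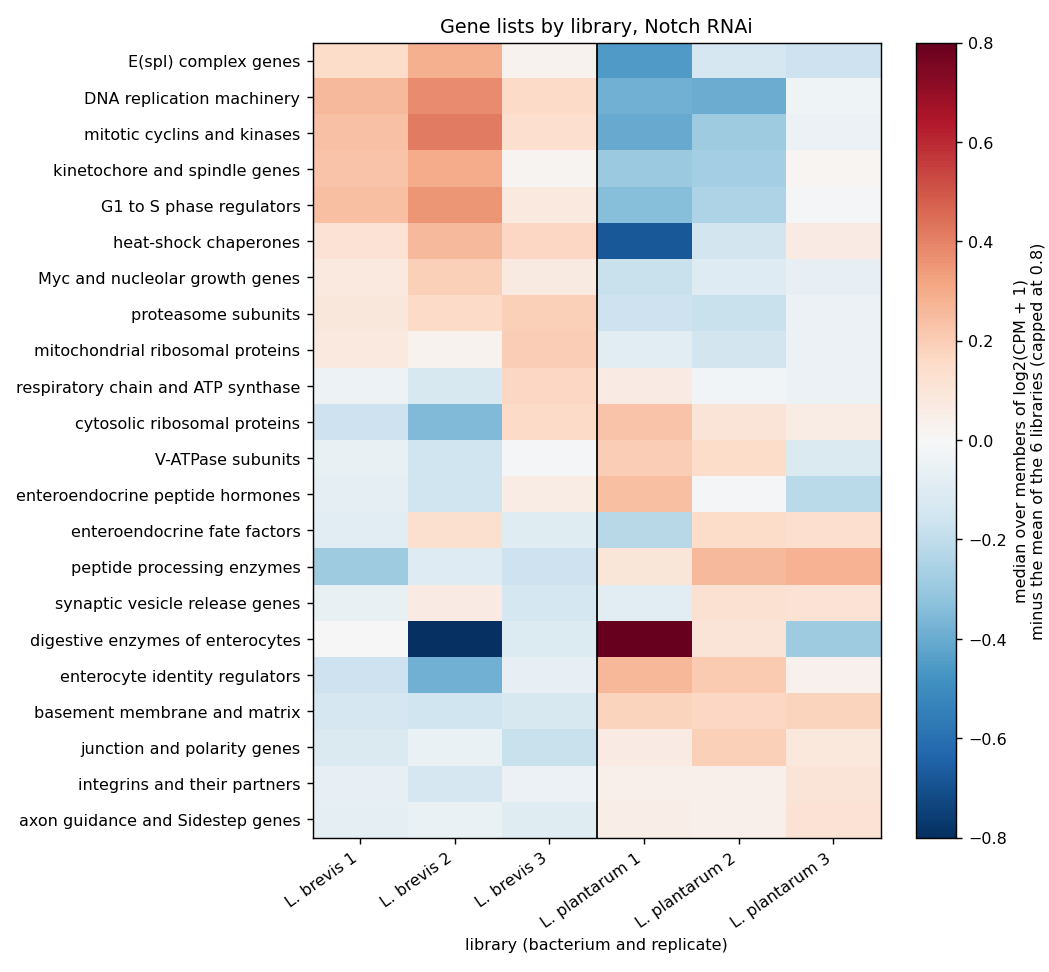
Median over the members of each of 22 gene lists (y axis) of log2(CPM + 1) minus the mean of the 6 libraries, for the 3 L. brevis libraries (left) and the 3 L. plantarum libraries (right). The replication list reads 0.26, 0.38 and 0.15 in the L. brevis libraries and -0.38, -0.40 and -0.03 in the L. plantarum libraries, and the digestive list -0.82 in L. brevis replicate 2 and 1.10 in L. plantarum replicate 1, which is drawn at the cap of 0.8.

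Several genes of the matrix and of cell adhesion were lower. Of 20 basement membrane and matrix genes 7 were lower and none higher, at a median of -0.38. These are long genes, with a median of 5936 bases of exon, and with the length trend removed 2 stayed lower at a median of -0.17. Those 2 were Mmp2 and Ndg. Matrix metalloproteinase Mmp2 stood at 11.99, 11.2 and 13.1 CPM with L. brevis and at 24.7, 20.3 and 26.04 CPM with L. plantarum, without overlap (-0.97, SE 0.116, edgeR adjusted p = 0.00141). The basement membrane linker nidogen (Ndg) had 2.92, 5.81 and 5.67 CPM with L. brevis and 9.64, 17.6 and 13.7 CPM with L. plantarum (-1.50, SE 0.279, edgeR adjusted p = 0.00667). Both were called in all 6 fits without a library, and both overlap an antisense gene. The laminin chains LanA and LanB2 were at -0.95 and -0.78 (edgeR adjusted p = 0.0231 and 0.0181) and lost their calls with the length trend removed (edgeR adjusted p = 0.0528 and 0.0535). The list had 4, 2 and 3 lower calls without L. brevis replicates 1, 2 and 3, and 3, 2 and 5 without L. plantarum replicates 1, 2 and 3.

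Of 19 integrins and partners 5 were lower, at a median of -0.16, and with the length trend removed 3 were lower and 2 higher. The integrin chain ItgaPS4 had 4.33, 3.88 and 4.43 CPM with L. brevis and 10.9, 9.60 and 8.42 CPM with L. plantarum (-1.19, SE 0.168, edgeR adjusted p = 0.00325). It lies antisense to Trpm, a cation channel with one of the largest falls (-1.72, edgeR adjusted p = 0.00443), so the reads of these genes may be mixed. Vinculin (Vinc), at 218.9, 215.3 and 216.2 CPM with L. brevis and 303.5, 317.6 and 286.4 CPM with L. plantarum, differed by -0.48 (SE 0.111, edgeR adjusted p = 0.0153), and talin (rhea) by -0.90 (SE 0.205, edgeR adjusted p = 0.0154). Among 27 junction and polarity genes 5 were lower and 1 higher, at a median of -0.20 (0.04 with the length trend removed, 2 in each direction). The polarity scaffold scrib had 58.8, 61.3 and 55.2 CPM with L. brevis and 102.2, 108.0 and 107.0 CPM with L. plantarum (-0.86, SE 0.17, edgeR adjusted p = 0.00857; -0.38 and still called with the trend removed). Crumbs (crb), at -0.73, was not called then (-0.29, edgeR adjusted p = 0.104). Without L. plantarum replicate 2 the integrin and junction lists had 1 and 2 lower calls, and without L. brevis replicate 2 both had 2.

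Immune genes that bacteria are known to engage held few calls between the bacteria. Among all genes 7.36% were higher and 7.0% lower, so few calls in lists this small do not set them apart. None of 12 peptidoglycan recognition proteins was called in the main edgeR fit, at a median of -0.19. DESeq2 called 1 higher, and removal of the length trend gave 1 call in each direction. The edgeR fit on these 2 groups alone called 1 higher, and with a replicate block in that fit 2 were lower. The receptor PGRP-LC stood at 143.4, 125.0 and 126.8 CPM with L. brevis and 140.2, 151.6 and 138.8 CPM with L. plantarum, and PGRP-SC2, an amidase, ranged widely in both groups (247.6, 103.2 and 231.8 against 412.4, 122.7 and 186.3 CPM). In 16 genes of the Imd pathway and its antimicrobial peptides the 1 call was Rel, the pathway's transcription factor. Rel had 313.0, 269.4 and 310.8 CPM with L. brevis and 487.7, 440.3 and 420.7 CPM with L. plantarum, without overlap (-0.59, SE 0.132, edgeR adjusted p = 0.0131; -0.52 with the length trend removed). It was called in 4 of the 6 fits without a library. Pirk, an inhibitor of the pathway, was at -0.40 and not called (edgeR adjusted p = 0.114).

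Of 19 Toll pathway genes 2 were lower, the receptor Tl and the transcription factor Dif. Tl stood at 1.28, 1.21 and 1.19 CPM with L. brevis and at 4.77, 8.998 and 4.84 CPM with L. plantarum, a low level in both, and was -2.01 with the length trend removed (edgeR adjusted p = 0.00233). Dif had 74.2, 80.7 and 81.6 CPM with L. brevis and 130.0, 133.9 and 105.6 CPM with L. plantarum (-0.64, SE 0.103, edgeR adjusted p = 0.00443). Both were called in all 6 fits without a library, but Dif was not called with the length trend removed (-0.29, edgeR adjusted p = 0.263), and an antisense gene overlaps it. Among 18 oxidase and antioxidant genes 4 were lower. The immune-regulated catalase Irc was the clearest, at 3.59, 4.33 and 5.10 CPM with L. brevis and 6.72, 9.26 and 7.94 CPM with L. plantarum (-0.88, SE 0.162, edgeR adjusted p = 0.00664). Gclc of glutathione synthesis, cnc and Cat were at -0.47, -0.37 and -0.38, and of these Cat stayed called with the length trend removed.

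The JAK-STAT, EGF receptor, BMP, Hippo, Wnt and insulin and TOR lists had 2 or 3 lower and 0 to 2 higher calls each. Over all genes 7.36% were higher and 7.0% lower, so lower calls took a larger share of each of these lists. With the length trend removed they had 0 to 2 lower calls each, against 5.76% over all genes. In the JAK-STAT pathway 1 of 16 genes was higher and 2 were lower. Its feedback inhibitor Socs36E stood at 741.3, 725.8 and 694.0 CPM with L. brevis and at 419.8, 444.8 and 553.7 CPM with L. plantarum, without overlap (0.61, SE 0.123, edgeR adjusted p = 0.00876; 0.69 with the length trend removed). The call was lost without L. plantarum replicate 2 (edgeR adjusted p = 0.053). The transcription factor Stat92E was at -0.38 (edgeR adjusted p = 0.0364) and at -0.07 with the length trend removed.

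Of 24 EGF receptor pathway genes 2 were higher and 3 lower, at a median of -0.16, and 3 and 0 with the length trend removed. Argos (aos), a secreted inhibitor induced by the pathway, had 62.3, 61.0 and 50.7 CPM with L. brevis and 35.9, 32.4 and 37.9 CPM with L. plantarum. The groups do not overlap, and the change of 0.71 (SE 0.119, edgeR adjusted p = 0.00485) was called in all 6 fits without a library and was 0.67 with the length trend removed. Of the ligands, spitz (spi) was at 0.40 (SE 0.0985, edgeR adjusted p = 0.0198). Vein (vn), known as a signal from visceral muscle, was at 15.7, 20.6 and 26.9 CPM with L. brevis and 61.8, 43.2 and 43.1 CPM with L. plantarum (-1.23, SE 0.229, edgeR adjusted p = 0.00694; -0.90 and edgeR adjusted p = 0.0545 with the length trend removed).

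Of 18 genes of JNK stress signalling 1 was higher, the kinase bsk at 0.46 (SE 0.0961, edgeR adjusted p = 0.0103), and 5 were lower. The growth factor receptor Pvr had 29.8, 27.8 and 34.1 CPM with L. brevis and 62.4, 62.8 and 61.6 CPM with L. plantarum, without overlap (-1.03, SE 0.166, edgeR adjusted p = 0.00443; -0.61 with the length trend removed). The filamin cher was at -1.02 (SE 0.189, edgeR adjusted p = 0.0067) and the cell death gene hid at -0.70 (SE 0.163, edgeR adjusted p = 0.0154). In the BMP pathway the ligand gbb was at 0.44 and the receptor wit at -1.02 (edgeR adjusted p = 0.0154 and 0.00857), among 1 higher and 2 lower of 14. Hippo pathway genes had 3 lower calls of 16, among them ex, an upstream regulator, at -0.94 (edgeR adjusted p = 0.00876). The Wnt pathway had 2 lower of 18 (por and Apc), the insulin and TOR pathway 2 lower of 18 (gig and chico) and the axon guidance list 3 lower of 22 (robo1, robo2 and NetB). Of the 18 genes of the ecdysone response none was called in the main edgeR fit, at a median of -0.23. DESeq2 and the edgeR fit on these 2 groups alone each called 1 lower, and 1 was higher with the length trend removed. With the length trend removed the JNK list had 2 calls in each direction and the Hippo list 2 lower, and the medians of the Wnt, insulin and TOR, axon guidance and ecdysone lists were positive, at 0.13, 0.02, 0.03 and 0.09. Without L. plantarum replicate 2 the JNK, Hippo, BMP, Wnt and insulin lists had 3, 1, 1, 0 and 0 lower calls, and without L. brevis replicate 2 they had 2, 1, 2, 0 and 0.

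Several of the sharpest differences lay outside these lists. The channel accessory gene unc79 stood at 5.84, 5.61 and 6.20 CPM with L. brevis and 10.3, 15.3 and 15.2 CPM with L. plantarum (-1.21, SE 0.158, edgeR adjusted p = 0.00193). The fibronectin-domain gene mtgo (FBgn0259735) had 91.9, 84.3 and 96.7 CPM with L. brevis and 192.3, 183.3 and 182.3 CPM with L. plantarum, almost without spread inside a group (-1.03, SE 0.134, edgeR adjusted p = 0.00193). CG14464 was higher in every L. brevis library, at 111.9, 117.2 and 112.3 CPM against 55.0, 56.9 and 73.3 CPM with L. plantarum (0.88, SE 0.11, edgeR adjusted p = 0.00156). The gene jus, known from seizure mutants, was at -1.07 (SE 0.145, edgeR adjusted p = 0.00273). All 4 were called in all 6 fits without a library and with the length trend removed, and unc79 and jus overlap antisense genes.

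Among the largest falls, the immunoglobulin-domain adhesion gene tei (FBgn0000633) had 9.84, 12.6 and 15.0 CPM with L. brevis and 30.1, 46.1 and 48.6 CPM with L. plantarum (-1.74, SE 0.297, edgeR adjusted p = 0.00608). CG42540 had 3.53, 7.73 and 9.53 CPM against 14.8, 30.1 and 28.4 CPM (-1.82, SE 0.327, edgeR adjusted p = 0.00667), and CG30089 and CG9727 were at -1.89 and -1.75 (edgeR adjusted p = 0.00325 and 0.00629). All 4 were called in all 6 fits without a library. The potassium channel Ork1 (-2.29), CG1722 (-1.90), CG9899 (-1.81) and CG14762 (-1.76) were called in 3 or 4 of them. Among the largest rises, Mt2, a methyltransferase of transfer RNA, had 5.52, 5.28 and 4.90 CPM with L. brevis and 1.88, 1.71 and 2.43 CPM with L. plantarum (1.38, SE 0.258, edgeR adjusted p = 0.0067, called in all 6 fits).

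Markers of other tissues were looked up because RNA of other cells could enter the sort. Their summed levels with L. brevis and with L. plantarum were 797.5 to 1092 and 1254 to 1655 CPM for 16 visceral muscle markers, 132.3 to 141.9 and 143.8 to 160.7 CPM for 10 haemocyte markers, with eater at 0, and 89.2 to 108.2 and 120.4 to 134.1 CPM for 10 fat body markers. For 8 neuron and glia markers they were 191.9 to 197.3 and 261.2 to 302.6 CPM, for 7 Malpighian tubule markers 97.4 to 134.0 and 89.9 to 132.1 CPM, and for 15 ovary markers 1.48 to 1.74 and 1.63 to 2.13 CPM, with Cp19 and dec at 0. The muscle, haemocyte, fat body and neuron sums were lower in every L. brevis library, in the same direction as the matrix, adhesion and vn results, and their part in those results was not tested. Single genes make up most of the muscle, haemocyte and fat body sums. Of the haemocyte sum, crq had 130.0, 138.7 and 132.1 CPM with L. brevis and 149.8, 155.8 and 140.4 CPM with L. plantarum, and without it the sums were 2.02 to 3.20 and 3.35 to 4.83 CPM. Of the fat body sum, FASN1 had 84.1, 93.8 and 81.97 CPM with L. brevis and 124.6, 111.8 and 108.4 CPM with L. plantarum. Its change of -0.41 (edgeR adjusted p = 0.0238) turned to 0.02 with the length trend removed, and without it the fat body sums overlap, at 7.24 to 14.5 and 8.91 to 12.01 CPM. Without moody the neuron and glia sums overlap too, at 127.2 to 137.4 and 131.5 to 184.0 CPM. The tubule and ovary sums of the groups overlap, but they were lower in every L. brevis library once the highest gene was left out. Without Irk1 the tubule sums were 8.71 to 15.2 and 17.1 to 23.8 CPM. Without bam the ovary sums were 0.554 to 0.871 and 0.887 to 1.18 CPM, a very low level. The muscle sum is mostly Msp300, at 791.6, 556.9 and 644.6 CPM with L. brevis and 1352, 1092 and 992.5 CPM with L. plantarum. The median change over all 16 muscle markers, by contrast, was 0.17. The main edgeR fit called 0 of them, the fit on these groups alone called 1 lower, and removal of the length trend gave 1 higher. Without Msp300 the muscle sums overlap, at 240.6 to 447.6 and 239.7 to 303.5 CPM. The median of the muscle markers ran between -0.51 without L. brevis replicate 3 and 1.12 without L. plantarum replicate 1.

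Neuron and glia genes had 3 lower calls of 7 tested, at a median of -0.12 (0.07 and 2 lower calls with the length trend removed). They include moody, a receptor of the blood-brain barrier glia, at 64.7, 59.9 and 63.0 CPM with L. brevis and 129.7, 126.7 and 106.6 CPM with L. plantarum (-0.95, SE 0.138, edgeR adjusted p = 0.00375), and Gad1, the enzyme that makes GABA, at 3.66, 6.17 and 6.94 against 10.2, 19.4 and 14.8 CPM (-1.40, SE 0.238, edgeR adjusted p = 0.00499). Both were called in all 6 fits without a library. For elav, nSyb, ChAT and repo of this list the groups overlap. Of these, repo had 3.01, 4.20 and 3.21 CPM with L. brevis and 2.77, 2.63 and 3.30 CPM with L. plantarum. The ion cotransporter NKCC of the tubule list was at -1.41 (edgeR adjusted p = 0.00667).

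The same bacteria were compared in esgts control flies, where L. brevis differed in 331 genes (2.81%), of which 115 stood higher (0.976%) and 216 lower (1.83%). Of these, 171 were also called under Notch RNAi, all in the same direction, which is 51.7% of the control calls and 10.1% of the Notch RNAi calls. Pvr was at -1.11 in controls (edgeR adjusted p = 0.0103) and vn at -1.41 (edgeR adjusted p = 0.0127). Cdk1 in controls averaged 8.99 ± 0.893 CPM with L. brevis and 7.70 ± 1.35 CPM with L. plantarum (SD, n = 3 each; log2 fold change 0.22, edgeR adjusted p = 0.413), and CCHa1 83.3 ± 6.56 and 74.3 ± 5.36 CPM (SD, n = 3 each; 0.16, edgeR adjusted p = 0.392). That these genes were called in one genotype only does not show a difference between genotypes. The interactions for Cdk1 and CCHa1, 0.66 and 0.71, were not called (edgeR adjusted p = 0.362 and 0.204).

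The difference between genotypes itself was called for 2 genes (0.017%), E(spl)malpha-BFM and Lmpt, with 1107 at an unadjusted p under 0.05. E(spl)malpha-BFM in control libraries stood at 261.5, 229.4 and 249.2 CPM with L. brevis and 253.7, 236.0 and 253.0 CPM with L. plantarum, a far higher level at which the groups overlap (-0.01, edgeR adjusted p = 0.989). Its interaction was 1.39 (SE 0.207, edgeR adjusted p = 0.0338). Lmpt, a LIM-domain gene of muscle, had 192.8, 206.7 and 206.5 CPM with L. brevis and 210.7, 184.2 and 210.2 CPM with L. plantarum under Notch RNAi, and 125.5, 135.7 and 134.4 against 219.8, 233.8 and 251.5 CPM in controls. Its interaction was 0.84 (SE 0.12, edgeR adjusted p = 0.0338). Both calls were lost in 9 of the 12 fits that leave out 1 of the libraries involved (highest edgeR adjusted p 0.133), and with the length trend removed both stood at an edgeR adjusted p of 0.0533.

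Set against germ-free Notch RNAi flies, which both bacteria share as the comparator, L. brevis differed in 1103 genes (9.36%; 4.87% higher, 4.49% lower) and L. plantarum in 16 (0.136%; 0.0594% higher, 0.0764% lower). E(spl)malpha-BFM was at 1.18 with L. brevis (edgeR adjusted p = 0.00115) and at -0.21 with L. plantarum (edgeR adjusted p = 0.648). For CCHa1 the values were 0.68 and -0.19 (edgeR adjusted p = 0.00204 and 0.535), for Cdk1 0.89 and 0.01 (0.00221 and 0.984), for amon -1.22 and 0.13 (0.00286 and 0.857), and for Mmp2 -0.78 and 0.19 (0.00154 and 0.577). Orcokinin had -1.47 with L. brevis (edgeR adjusted p = 0.00601) and -0.51 with L. plantarum (edgeR adjusted p = 0.512), and its germ-free level was 40744 ± 6179 CPM (SD, n = 3). For each of these 6 genes the difference from germ-free flies was called with L. brevis and not with L. plantarum. The 6 genes were named because they were called between the bacteria, in the same L. brevis and L. plantarum libraries. The pattern therefore follows in part from that choice and is no independent evidence on which bacterium differs.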

How the data were processed

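RNA was sequenced on an Illumina platform from sorted cells. Per the submitters' processing notes, FastQC, Trimmomatic, HISAT2, SAMtools and edgeR were used. The counting tool, strand setting and genome build are not given in the sources used here, so overlapping antisense genes cannot be told apart. The authors deposited raw counts per gene for 17 libraries, and a comparison table with log2 fold changes, p-values and false discovery rates. Gene names, exon lengths and coordinates (BDGP6) come from the Ensembl annotation; 17599 of 17737 identifiers matched a name.

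All libraries were fitted together in edgeR 4.0.16 (quasi-likelihood test, robust, TMM scaling, filterByExpr by group; R 4.3.3), with Benjamini-Hochberg adjustment over 11786 genes and calls at an adjusted p under 0.05. Ribosomal RNA genes stayed in. P-values measure the spread between the samples of each group. On simulated data for this comparison (11567 genes), 16.7%, 56.1% and 77.3% of changes of 0.5, 1 and 2 on the log2 scale were recovered. The simulation changed 66 genes at each size, far fewer than were called in the data, so these shares may not hold for the data.

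Named genes were N and Delta; among called genes without overlap of the groups, the 12 that rose most and the 12 that fell most and have at least 50 counts in every library of the higher group; the 8 with the smallest p among those called in all 6 leave-one-out fits; up to 4 called members of each list with the smallest p, or the 2 members with the highest mean CPM of a list with fewer than 2 calls; and called genes of the genotype difference. Other list members were named after their values were seen. The members, lists and rules were chosen with earlier results of these data known. Alternatives were RLE size factors, DESeq2 1.42.0, other count filters, these groups alone, a replicate block, ribosomal RNA left out, no robust estimation and each library left out. Removal of the length trend (lowess, span 0.3, genes of at least 5 CPM) and summed gene copies were added after the data had been seen. The gene esg is not analysed here.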

Additional observations from a re-analysis of the deposited data

Results flagged for a closer look

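The effect of L. brevis against L. plantarum differed between Notch RNAi and control cells by the interaction test for E(spl)malpha-BFM (1.39 on the log2 scale) and for Lmpt (0.84), both at an edgeR adjusted p of 0.0338. For 3 further genes, taken from the named genes, the groups did not overlap in either genotype and the directions were opposite, while the interaction was not called. How many of all genes tested do the same is not given here, so these 3 are not shown to be unusual. CG12934 had an interaction of -3.62 (edgeR adjusted p = 0.451), with 0.449, 2.19 and 8.46 CPM with L. brevis and 21.3, 78.2 and 14.2 CPM with L. plantarum under Notch RNAi, and 1089, 963.2 and 1179 against 961.0, 833.2 and 867.0 CPM in controls. Vha55, a V-ATPase subunit, had -0.45 (edgeR adjusted p = 0.358), with control levels of 666.8, 626.7 and 604.1 CPM with L. brevis and 596.4, 559.8 and 573.3 CPM with L. plantarum. Irc had -1.15 (edgeR adjusted p = 0.188), with control levels of 13.97, 14.4 and 19.1 against 13.7, 13.01 and 12.7 CPM.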

How the results depend on the processing

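The 1692 calls of L. brevis against L. plantarum under Notch RNAi numbered 1291 to 2507 under the other alternatives that keep all libraries and 811 with a replicate block in these groups alone. Correlations between same-numbered L. brevis and L. plantarum Notch RNAi libraries were 0.14, 0.03 and -0.12. Differently numbered pairs ran from -0.26 to 0.26. So few pairs cannot decide whether same-numbered libraries share a batch. For the groups alone, the block lowered the Notch RNAi calls from 1438 to 811 and raised the control calls from 6 to 575. Leaving out 1 Notch RNAi library gave 250 to 1649 calls between the bacteria under Notch RNAi. Control flies (331) had 863 calls by DESeq2, 6 for the groups alone, 575 with the replicate block in the groups alone and 2 to 1292 without a library. The difference between genotypes (2) had 57 by DESeq2, 11 with a replicate block over all libraries, 0 for the groups alone, with the block in the groups alone, without robust estimation and with the length trend removed (975, 938, 1140 and 1263 genes at an unadjusted p under 0.05), and 0 to 10 without a library. L. brevis against germ-free flies (1103) had 1672 by DESeq2 and 326 to 965 without a library. L. plantarum against germ-free flies (16) had 151 by DESeq2, 37 with the replicate block, 1 for the groups alone, 50 with the block in them, 25 without robust estimation and 0 to 19 without a library.

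Of 918 gene values from fits without a library, 606 kept their direction and side of the threshold, 301 lost the call and 10 reversed. With the length trend removed, 6 of 153 reversed: ATPsynbeta to -0.0415, shn to 0.0331, cnc to 0.0673, Eip63E to 0.299, Eip75B to 0.155 and FASN1 to 0.0243. ATPsynC reversed under RLE factors (0.0020), DESeq2 (0.0027) and without ribosomal RNA (0.0323), with -0.0523 to 0.0456 without a library. Lmpt reversed with a mean of at least 50 counts (-0.0185), for the groups alone (-0.0350) and with the replicate block in them (-0.0329), with -0.0591 to 0.0346 without a library. Without a library, Amy-p ran between -0.36 and 0.52, PGRP-SC2 between -0.62 and 0.33 and bam between -0.0130 and 0.381. The causes were not tested. On simulated data 16.7% of changes of 0.5 were recovered. Only 66 genes were changed at each size there, against 1692 called here, so this share may not hold for these data. Differences of that size may still lack a call.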
